A study of Mus musculus with 16 samples.

Results

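The genes described here are 9 genes of cytokine signalling, 5 that encode STAT transcription factors (Stat3, Stat4, Stat5a, Stat5b and Stat6) and 4 that encode feedback inhibitors of the suppressor of cytokine signalling family (Socs1, Socs2, Socs3 and Cish). They were chosen by symbol, and each was found once among the 53090 genes of every library. The data are stranded mRNA sequencing libraries from CD4+ T cells of mouse spleen, 4 libraries in each of 4 groups. Naïve cells (Tn) were taken fresh from the spleen, either from C57BL/6 wild-type mice (WT) or from mice on the same background that lack AIM2 (Aim2-/-), a cytosolic sensor of double-stranded DNA. The 2 other groups were CD4+ T cells of the same genotypes after 48 h under regulatory T cell (Treg) conditions, that is, antibodies to CD3 and CD28 together with recombinant human TGF-beta and recombinant mouse IL-2. The Aim2-/- mice came from a single purchased line, their deficiency is present in every cell of the animal, and the sources used here give no age or sex for the mice. All cultured groups received both antibodies and both cytokines, so the effects of activation, TGF-beta, IL-2 and time in culture cannot be told apart. The libraries held 22516424 to 34533316 expected counts each.

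When a cytokine binds its receptor, Janus kinases (JAKs) on the receptor chains phosphorylate STAT proteins, which pair, enter the nucleus and bind DNA. STAT5A and STAT5B carry the signals of IL-2 and IL-7, STAT3 those of IL-6, IL-10 and IL-21, STAT4 that of IL-12, and STAT6 that of IL-4. The genes of the SOCS family are themselves induced by STATs, and their proteins bind receptors or JAKs and damp the signal. In CD4+ T cells, IL-2 signalling through STAT5 is needed for Foxp3 expression and the upkeep of Treg cells, and SOCS1 and SOCS3 set the response of T cells to interferon-gamma and to cytokines that use gp130.

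STAT dimers bind the palindrome TTCNNNGAA, which reads the same on both strands. It was searched in the RefSeq promoter windows of the genes on GRCm38.p6, from 250 bases before to 50 bases after each annotated start. 8 of the 9 genes had a window, and the promoters of Cish and Socs3 are shown because they held the motif, marked in capitals.
Cish, chr9:107296409-107296708, + strand: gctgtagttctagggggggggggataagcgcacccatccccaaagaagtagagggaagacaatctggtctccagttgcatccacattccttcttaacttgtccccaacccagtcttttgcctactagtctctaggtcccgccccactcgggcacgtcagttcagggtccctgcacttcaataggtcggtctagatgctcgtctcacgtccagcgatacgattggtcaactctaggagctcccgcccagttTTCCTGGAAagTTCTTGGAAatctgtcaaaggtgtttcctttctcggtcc
Socs3, chr11:117969317-117969616, - strand: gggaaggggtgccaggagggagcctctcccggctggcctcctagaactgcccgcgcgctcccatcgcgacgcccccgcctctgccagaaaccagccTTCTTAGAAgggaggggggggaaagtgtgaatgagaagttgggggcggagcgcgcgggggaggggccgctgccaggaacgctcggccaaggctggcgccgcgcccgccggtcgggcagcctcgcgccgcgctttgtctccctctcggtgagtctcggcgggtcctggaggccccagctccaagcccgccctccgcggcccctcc
The Cish window held 2 copies, TTCCTGGAA starting at position 1 of the transcript and TTCTTGGAA starting at position 12, and the Socs3 window held 1 copy, TTCTTAGAA, starting at position -154. These positions count from the RefSeq start of each window. By the GENCODE M21 gene coordinates given below, both windows lie wholly within the gene. The windows of Socs1, Stat3, Stat4, Stat5a, Stat5b and Stat6 held none. Of 32851 windows of the same length, 8.30% held at least 1 copy and 0.457% held 2 or more. The form with a spacer of 4 bases, TTCNNNNGAA, was in 6.95% of all windows and in none of those of the 8 genes. The matches describe letters in the windows, and binding was not measured.

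The genotype labels were first checked on Aim2 itself. Aim2 stood at 32.3 to 37.9 counts-per-million (CPM, with TMM factors) in WT Tn libraries, against 6.61 to 9.26 CPM in those of Aim2-/- mice, and at 35.7 to 43.3 CPM in WT Treg libraries, against 7.17 to 10.8 CPM, so each library matched its label. The 6 CD4 T cell markers were expressed in every group. The 5 Treg markers summed to 59.4 to 128 CPM in the Tn libraries and to 1730 to 2240 CPM in the cultured libraries, and Foxp3 was on average 2.74 CPM in WT Tn and 477 CPM in WT Treg cells. Markers of other cells were low: the 2 CD8 T cell genes summed to at most 12.2 CPM, the 8 myeloid genes to at most 39.4 CPM and the 4 NK cell genes to at most 16.1 CPM. The 6 B cell genes summed to 423 to 574 CPM in Tn and 121 to 169 CPM in Treg libraries, with 4 or 5 of the 6 under 1 CPM in every library of a group. Their part in the results below was not tested. The labels do not say whether the libraries of a group came from separate mice, so that the p-values measure the spread between these libraries, which may be technical.

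The largest changes with culture were in the feedback genes Socs2, Cish and Socs3, and not in one direction. In WT cells Socs2, Cish and Socs1 rose and Socs3 fell, and the same directions were called in Aim2-/- cells. With the STAT genes counted, 5 of the 9 genes rose, 3 fell and 1 did not pass the test in WT cells, while 6 rose and 3 fell in Aim2-/- cells, at an adjusted p under the threshold of 0.05 in the quasi-likelihood test of edgeR. Most genes moved with culture: 76.9% of 13675 genes tested were called in WT cells and 79.3% of 13713 in Aim2-/- cells, with 37.7% higher and 39.2% lower in WT and 39.1% higher and 40.2% lower in Aim2-/- cells. The count of called members is close to the background and is not a result about them. Socs2 passed the count filter in Aim2-/- cells only through the Treg libraries, and of the 8 genes that passed in both states there, 5 rose and 3 fell. The median log2 fold change over the 9 genes was 0.66 in WT and 0.82 in Aim2-/- cells, beside -0.05 and -0.04 over all genes tested. For all 9 genes the Tn and Treg libraries of a genotype did not overlap in CPM, which was also so for 72.9% of all genes in WT and 74.8% in Aim2-/- cells. In bulk RNA, a change in the share of cells that express a gene and a change in RNA per cell cannot be told apart.

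**Figure D1:**
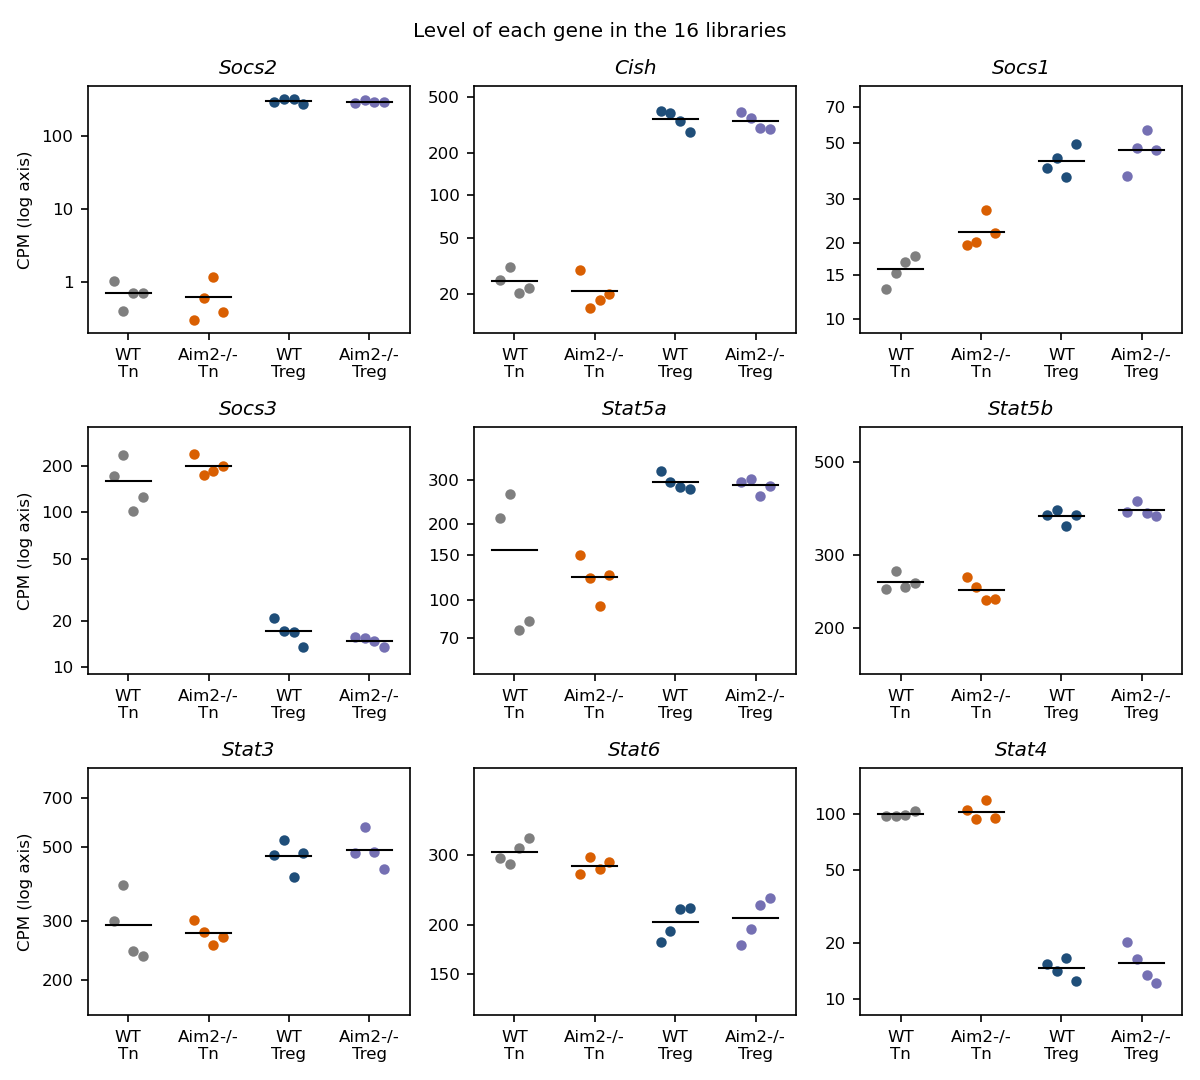
CPM (log axis, range set per gene) of the 9 genes in each library, with 1 point per library, replicates 1 to 4 from left to right, and a black line at the group mean. The Tn and Treg points of a genotype do not overlap for any gene, and the WT Tn points of Stat5a lie in 2 separate pairs.

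Socs2 (ENSMUSG00000020027.18, chr10:95385362-95417180, - strand, by GENCODE M21 on GRCm38, as for the other genes), whose protein binds the growth hormone receptor and other receptors, had the largest change of the 9 genes. It was at 1.04, 0.395, 0.718 and 0.716 CPM in the WT Tn libraries and at 295, 320, 325 and 275 CPM in the WT Treg libraries. Aim2-/- cells had 0.300, 0.599, 1.16 and 0.394 CPM when naïve and 283, 311, 292 and 294 CPM after culture. Each Treg library was thus far above each Tn library, and the nearest WT pair was still 265-fold apart. The log2 fold change was 8.67 ± 0.21 (SE, n = 4 per group, edgeR adjusted p = 1e-09) in WT and 8.90 ± 0.25 (adjusted p = 2.9e-10) in Aim2-/- cells. In Aim2-/- cells Socs2 passed the count filter only through its Treg libraries, which favours a rise, so that its p-value there is a description. The naïve levels rest on 8 to 31 counts per library, above the floor of 3 counts, and Socs2 had shared reads in 9 of the 16 libraries.

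Cish (ENSMUSG00000032578.7, chr9:107296026-107302784, + strand), the cytokine-inducible SH2 protein gene and a textbook target of STAT5, was low in Tn libraries and high after culture. WT Tn libraries had 24.8, 31.2, 20.1 and 21.8 CPM and WT Treg libraries 401, 387, 339 and 283 CPM. Aim2-/- values were 29.6, 15.8, 18.1 and 19.9 CPM in Tn and 391, 356, 303 and 296 CPM in Treg libraries. Within both Treg groups replicates 1 and 2 were the higher pair, yet the lowest Treg library of either genotype was over 9 times the highest Tn library of its genotype, at 9.07-fold in WT and 9.98-fold in Aim2-/- cells. The rise came to 3.82 ± 0.17 on the log2 scale in WT and 4.00 ± 0.20 in Aim2-/- cells (edgeR adjusted p = 3.9e-08 and 2.5e-08). This is the promoter with 2 copies of the motif shown above.

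Socs1 (ENSMUSG00000038037.4, chr16:10782240-10785536, - strand), which inhibits JAKs and limits interferon-gamma signalling, rose less. Its WT values were 13.2, 15.3, 16.9 and 17.8 CPM in Tn and 39.9, 43.6, 36.6 and 49.5 CPM in Treg libraries. Aim2-/- libraries had 19.8, 20.2, 27.1 and 21.96 CPM in Tn and 37.0, 47.9, 56.3 and 46.9 CPM in Treg cells. All Treg libraries were above all Tn libraries of their genotype. The rise was 1.39 ± 0.13 on the log2 scale in WT and 1.07 ± 0.14 in Aim2-/- cells (edgeR adjusted p = 4.6e-06 and 2.4e-05).

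Socs3 (ENSMUSG00000053113.3, chr11:117966079-117970047, - strand), the inhibitor of signalling through gp130, went the other way. WT Tn libraries had 173, 236, 102 and 125 CPM, and WT Treg libraries 20.6, 17.0, 16.9 and 13.6 CPM. Aim2-/- cells had 237, 175, 184 and 200 CPM when naïve and 15.6, 15.4, 14.8 and 13.6 CPM after culture. The naïve WT libraries were widely spread while the Treg libraries were close together, and no Treg library came near the Tn range. The log2 fold change was -3.25 ± 0.27 in WT and -3.75 ± 0.11 in Aim2-/- cells (edgeR adjusted p = 3.3e-06 and 1.9e-10), which leaves 0.105 and 0.0742 of the naïve level.

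The opposite courses changed which inhibitor gene led. Taken per kilobase of exon, Socs3 made up 79.7% to 88.9% of the summed level of the 4 feedback genes in the 8 Tn libraries and 4.80% to 6.25% in the 8 Treg libraries. With the length of the longest transcript these shares were 79.6% to 88.5% and 3.46% to 4.58%. The ratio of Cish to Socs3 per kilobase was 0.0406 to 0.0884 in Tn and 8.75 to 11.3 in Treg libraries. Cish was thus the minor gene of the pair in every Tn library and the major one in every Treg library.

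**Figure D2:**
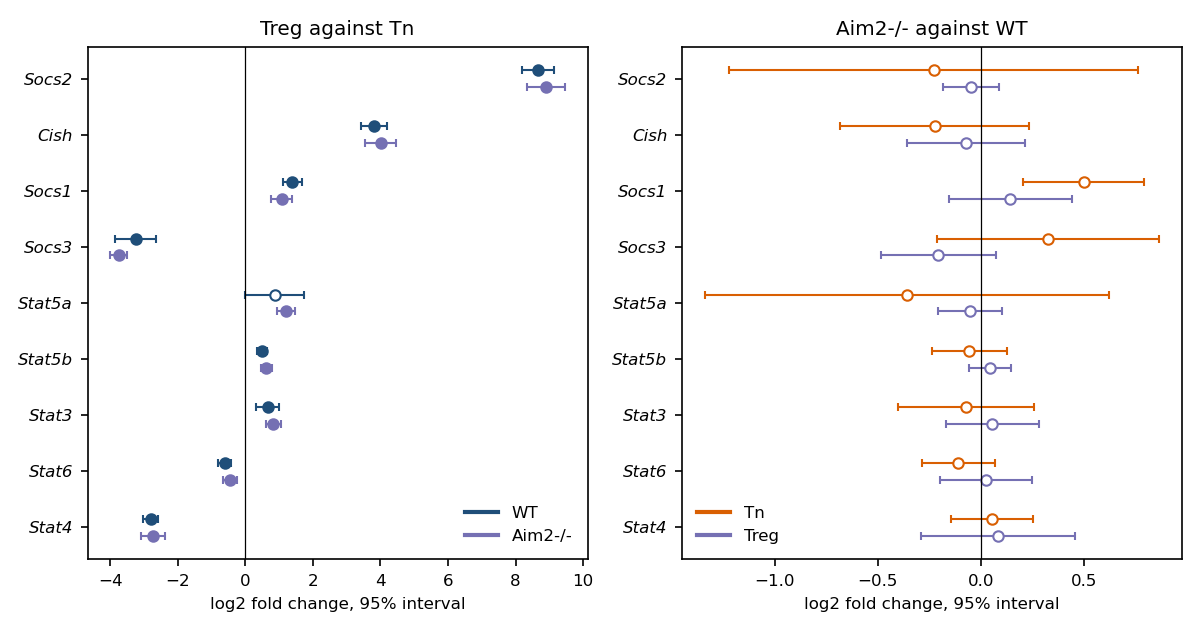
Log2 fold change (point) with its 95% interval (bar) for the 9 genes, after culture against naïve in each genotype (left) and Aim2-/- against WT in each state (right), from edgeR with 4 libraries per group. Filled points passed an adjusted p of 0.05. On the left 8 WT and 9 Aim2-/- points are filled, from -3.75 for Socs3 to 8.90 for Socs2. On the right, on a narrower axis, none is filled.

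Among the STAT genes, Stat4 fell the most. STAT4 is activated by IL-12 and drives Th1 genes, and its gene is at chr1:51987148-52107189 on the + strand (ENSMUSG00000062939.11). Its CPM was 98.4, 98.6, 100 and 104 in WT Tn and 15.4, 14.2, 16.7 and 12.6 in WT Treg libraries. Aim2-/- Tn libraries had 106, 94.1, 119 and 95.7 CPM, and Aim2-/- Treg libraries 20.4, 16.5, 13.4 and 12.3 CPM. The WT Tn libraries were the tightest group of any of the 9 genes, with a coefficient of variation of 2.73%. Its log2 fold change was -2.80 ± 0.10 in WT and -2.74 ± 0.16 in Aim2-/- cells (edgeR adjusted p = 8.7e-09 and 2.9e-08).

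Stat6 (ENSMUSG00000002147.18, chr10:127642986-127660957, + strand), the STAT of IL-4 signalling, fell by less. WT libraries had 294, 285, 311 and 331 CPM in Tn and 181, 193, 220 and 221 CPM in Treg cells. Aim2-/- libraries had 268, 296, 276 and 288 CPM in Tn and 178, 195, 224 and 234 CPM in Treg cells. In both Treg groups replicates 3 and 4 were the higher pair, and the Tn libraries still lay above them, by 1.29-fold at the nearest in WT and 1.14-fold in Aim2-/- cells. On the log2 scale the change was -0.62 ± 0.08 in WT and -0.45 ± 0.09 in Aim2-/- cells (edgeR adjusted p = 8.4e-05 and 0.00092).

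Stat3 and Stat5b rose. Stat3 (ENSMUSG00000004040.16, chr11:100885098-100939540, - strand), needed for Th17 differentiation, had 299, 385, 243 and 236 CPM in WT Tn and 472, 522, 405 and 479 CPM in WT Treg libraries. Aim2-/- libraries had 302, 277, 254 and 268 CPM in Tn and 478, 572, 480 and 427 CPM in Treg cells. The log2 fold change was 0.66 ± 0.16 in WT and 0.82 ± 0.10 in Aim2-/- cells (edgeR adjusted p = 0.0033 and 1.5e-05), with the WT groups only 1.05-fold apart at their nearest libraries. Stat5b (ENSMUSG00000020919.11, chr11:100780731-100850724, - strand), one of the paired STAT5 genes, had 248, 275, 251 and 256 CPM in WT Tn and 372, 384, 351 and 372 CPM in WT Treg libraries. In Aim2-/- cells it had 265, 252, 234 and 235 CPM in Tn and 379, 403, 378 and 372 CPM in Treg libraries. The coefficient of variation of Stat5b was 3.61% to 6.09% over the 4 groups, and the smaller rise was 0.49 ± 0.06 in WT and 0.63 ± 0.08 in Aim2-/- cells (edgeR adjusted p = 4.9e-05 and 1.2e-05).

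Stat5a (ENSMUSG00000004043.14, chr11:100859351-100885169, + strand), the neighbour and close relative of Stat5b, was the one gene whose culture change missed the threshold in WT cells. WT Tn libraries had 212, 263, 75.7 and 82.5 CPM, so replicates 1 and 2 were 2.57-fold or more above replicates 3 and 4. WT Treg libraries had 325, 295, 282 and 275 CPM, all above the Tn libraries but only 1.05-fold above the highest of them. Aim2-/- libraries had 150, 122, 94.6 and 125 CPM in Tn and 294, 303, 259 and 284 CPM in Treg cells, with no such split. The log2 fold change was 0.86 ± 0.38 in WT cells (95% interval -0.01 to 1.74, edgeR adjusted p = 0.066) and 1.21 ± 0.13 in Aim2-/- cells (adjusted p = 3.7e-06). Within replicates 1 and 2 the WT change was 0.40 ± 0.11 and within replicates 3 and 4 it was 1.78 ± 0.09 (n = 2 per group). These pairs follow the gap in Stat5a itself, so both values are descriptions and no test of the WT change. Leaving out WT Tn replicate 2 alone also brought the pooled WT value past the threshold, at 1.20 ± 0.35 (adjusted p = 0.014), and DESeq2 called it at 0.91 (adjusted p = 0.012). Of 10 other tools and settings, DESeq2 among them, 6 called the WT change and the rest did not.

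Stat5b showed no such split. The ratio of Stat5b to Stat5a counts was 1.17, 1.05, 3.31 and 3.11 in the WT Tn libraries, 1.77 to 2.47 in Aim2-/- Tn libraries and 1.14 to 1.46 in the 8 Treg libraries. In WT Tn libraries 7 of the 9 genes did not overlap between replicates 1 and 2 and replicates 3 and 4. The same was so for 3 of the 9 in Aim2-/- Tn, 4 in WT Treg and 6 in Aim2-/- Treg libraries. The share over all genes was not computed, so these counts are no result about the 9 genes. In WT Tn libraries Socs3, Stat3 and Cish were lower in 3 and 4, as Stat5a was, by 1.38-, 1.23- and 1.14-fold at the nearest libraries. Socs1, Stat4 and Stat6 were higher there, by 1.11-, 1.01- and 1.06-fold. In the same libraries the 5 Treg markers summed to 122, 118, 59.4 and 65.0 CPM, against 111 to 128 CPM in Aim2-/- Tn libraries. Ctla4 carried most of this gap, at 12.8 to 80.0 CPM in WT Tn libraries. There Tnfrsf18 was at 30.9 to 36.4 CPM, and Foxp3, Il2ra and Ikzf2 were at most 4.02, 4.16 and 3.68 CPM. The 7 naïve markers summed to 5970, 6190, 4540 and 4490 CPM. Among them Ccr7 (411 to 1564 CPM) and S1pr1 (379 to 955 CPM) had the widest ranges, while Tcf7 (1512 to 1720 CPM) and Il7r (473 to 528 CPM) varied little. The part of these markers in the Stat5a values was not tested, and the labels name no batch. Stat5a and Stat5b are closely related in sequence, and both had non-whole expected counts in all 16 libraries, which shows that reads were divided between genes, so the level of each carries that uncertainty. The end of Stat5a also overlaps the end of Stat3 on the other strand, and the strand setting of the counting is not given in the sources used here.

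**Figure D3:**
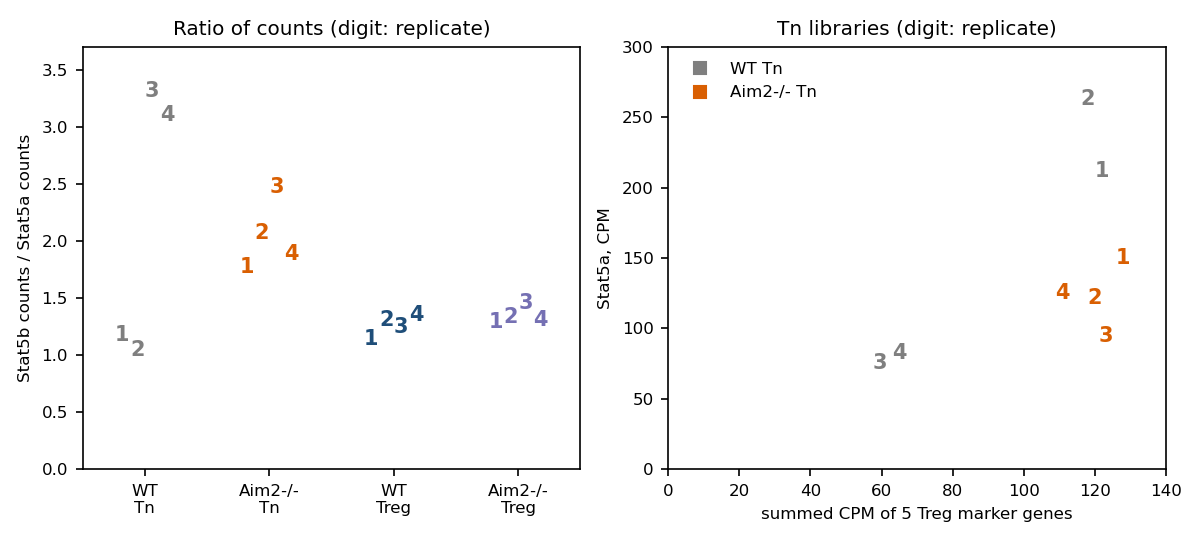
Ratio of Stat5b to Stat5a counts in each library (left) and Stat5a CPM against the summed CPM of the 5 Treg marker genes in the Tn libraries (right). Each digit is 1 library and gives its replicate number. WT Tn replicates 3 and 4 stand apart, with ratios of 3.31 and 3.11, the lowest Stat5a values and the lowest marker sums. The marker sums of the WT Tn libraries differ mostly through 1 gene, Ctla4 (12.8 to 80.0 CPM).

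Per kilobase of exon, the order of the 9 genes differed between the states. In WT Tn libraries the mean CPM per kilobase (RPKM) were 69.3 ± 4.59 for Stat6, 55.03 ± 20.4 for Socs3 and 46.5 ± 2.17 for Stat5b (SD, n = 4), and Socs3 overlapped both neighbours. Stat3 (30.5 ± 7.23), Stat4 (25.9 ± 0.710) and Stat5a (22.2 ± 13.1) came next and overlapped in sequence. Socs1 (5.43 ± 0.697) and Cish (3.81 ± 0.762) overlapped each other, and Socs2 was last at 0.0752 ± 0.0274. In Aim2-/- Tn libraries Socs3 (68.7 ± 9.49) and Stat6 (64.0 ± 2.84) overlapped at the top and the rest kept the WT order.

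After culture Stat5b was first in both genotypes, at 66.8 ± 2.49 RPKM in WT and 69.1 ± 2.49 in Aim2-/- libraries, and did not overlap the next gene. Cish, Stat3, Stat6 and Stat5a followed, each overlapping the next in the order, at 54.9 ± 8.30, 49.3 ± 5.09, 46.2 ± 4.52 and 41.3 ± 3.12 RPKM in WT libraries. Below them came Socs2 (31.9 ± 2.45), Socs1 (14.6 ± 1.90), Socs3 (5.90 ± 0.996) and Stat4 (3.80 ± 0.454), without overlap in WT and with an overlap of Socs3 and Stat4 in Aim2-/- libraries. The upper part of this order depends on the length used: with the longest transcript in place of all exons, Stat3 was first and Stat5b was in place 5 in WT Treg libraries, while Socs1, Socs3 and Stat4 stayed the lowest.

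**Figure D4:**
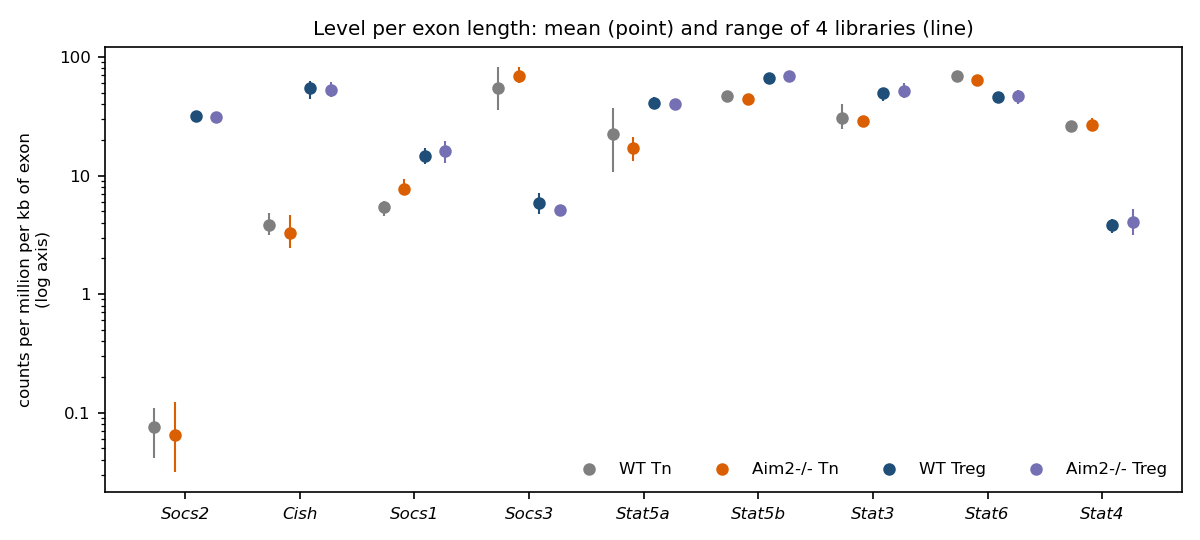
Mean CPM per kilobase of exon (log axis, points) and the range over 4 libraries (lines) for the 9 genes in the 4 groups. Socs2 and Cish move up and Socs3 and Stat4 move down between the Tn and Treg groups, while the group means of Stat5b and Stat6 stay between 44.5 and 69.3.

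The question of the study's design was whether the loss of AIM2 changes naïve cells and cells under Treg conditions. None of the 9 genes was called for genotype in Tn cells, where 0.231% of 13441 genes were called by edgeR, and 1 of the 9 had an unadjusted p under 0.05, beside 10.3% of all genes tested, so that count is near the background. That gene was Socs1, with Aim2-/- above WT in CPM in all 4 against 4 libraries and a log2 fold change of 0.50 ± 0.13 (95% interval 0.21 to 0.79), or 1.41-fold. Its adjusted p was 0.31, 0.059 to 0.44 over the other tools and settings and 0.24 to 0.66 with single libraries left out, so it is not called. Replicate numbers follow the sample titles, while the deposited files number the Aim2-/- Tn libraries 1, 3, 4 and 5, so that which of them go with which WT number is uncertain. By the titles, the difference was 0.50 ± 0.13 within replicates 1 and 2 and 0.48 ± 0.14 within replicates 3 and 4 (adjusted p = 0.17 and 0.083, n = 2 per group). Groups that do not overlap in Tn cells were found for 6.95% of all genes and for Socs1 alone of the 9.

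The other 8 genes overlapped between the Tn genotypes. Stat5a had the most negative difference, -0.36 ± 0.42 (95% interval -1.34 to 0.62), and the direction differed within pairs of replicates: -0.79 ± 0.15 in replicates 1 and 2 and 0.46 ± 0.13 in replicates 3 and 4 (edgeR adjusted p = 0.12 and 0.085, n = 2 per group). Socs3 was 0.33 ± 0.24 over all libraries, 0.02 ± 0.20 in replicates 1 and 2 and 0.74 ± 0.12 in replicates 3 and 4. There it alone of the 9 was called (edgeR adjusted p = 0.014, n = 2 per group), and 493 of 13441 genes were called in all. The pairs follow the gap of Stat5a in WT Tn libraries, and Socs3 was also lower in WT Tn replicates 3 and 4. The values within pairs are thus descriptions and no test of genotype. Socs2 was at -0.23 ± 0.45 with an interval of -1.22 to 0.76, the widest of the 9, on 8 to 31 counts per Tn library. Stat4, Stat5b and Stat6 were held to narrow intervals, -0.14 to 0.25, -0.24 to 0.12 and -0.29 to 0.07. Cish was at -0.23 ± 0.21 and Stat3 at -0.07 ± 0.15. The 5 erythroid markers summed to 1.23 to 3.97 CPM in WT Tn and 5.13 to 7.94 CPM in Aim2-/- Tn libraries, and their part in these values was not tested.

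After culture the log2 differences between genotypes spanned a narrower range over the 9 genes. Stat4 was the exception, at 0.055 ± 0.089 in Tn and 0.082 ± 0.165 in Treg cells. None of the 9 genes was called, where 0.219% of 13221 genes were called by edgeR, none had an unadjusted p under 0.05, and each adjusted p was 1. No gene of the 9 had groups that did not overlap, against 2.26% of all genes. The log2 differences ran from -0.21 ± 0.12 for Socs3 to 0.14 ± 0.13 for Socs1, and the widest limits of any 95% interval were -0.49 and 0.46. Stat6 (0.02 ± 0.10), Stat5b (0.04 ± 0.05), Socs2 (-0.05 ± 0.06), Stat5a (-0.05 ± 0.07) and Stat3 (0.06 ± 0.10) had the smallest differences. DESeq2 and limma-voom also called none of the 9 in either state.

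The culture change was then compared between genotypes as an interaction over the 16 libraries. It was called for none of the 9 genes and for 0.0205% of 14669 genes by edgeR, with no unadjusted p under 0.05 among the 9. The difference of the culture effects (Aim2-/- minus WT, log2) was -0.52 ± 0.29 for Socs3 (95% interval -1.13 to 0.09), -0.34 ± 0.20 for Socs1 (-0.76 to 0.07) and 0.32 ± 0.44 for Stat5a (-0.62 to 1.26). For Stat5b it was 0.11 ± 0.09 (-0.07 to 0.30). That Stat5a passed the threshold in Aim2-/- and not in WT cells therefore does not show that its change differed.

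Other genes of the pathway were taken from 9 lists, 75 genes besides the 9. In WT cells 25 of the 66 tested rose with culture, 27 fell and 14 were not called, the median change being -0.02 on the log2 scale, and in Aim2-/- cells 28 rose and 28 fell of 66. The share called in WT cells, 78.8%, is near the 76.9% of all genes tested, and 5 of the 66 passed the count filter only through the Treg libraries. In Aim2-/- cells the share called was 84.8%, beside 79.3% of all genes tested, and 3 of the 66 passed only through the Treg libraries. These shares are not a result about the lists. For genotype, edgeR called none of 62 tested in Tn and none of 67 in Treg cells, and for the interaction none of 68. In Tn cells 1 list gene was called by DESeq2, Bcl3 (0.76 ± 0.18, adjusted p = 0.0052), which encodes a nuclear IkappaB protein and is on the list of STAT3-induced genes. It was at 0.78 ± 0.16 (adjusted p = 0.16) by edgeR, where it passed without the count filter (adjusted p = 0.035) and without WT Tn replicate 2 (0.93 ± 0.15, adjusted p = 0.037). In replicates 3 and 4 alone, where 493 genes were called, 9 list genes were. Bcl3 is named after its values were seen.

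Of 18 receptor chains tested of 19, 4 rose and 12 fell in WT cells, where 37.7% of all genes rose and 39.2% fell, and their median was -1.23, beside -0.05 over all genes. Il2ra, the high-affinity chain of the IL-2 receptor, went from 3.46 ± 0.799 to 1450 ± 55.4 CPM (SD, n = 4), a log2 fold change of 8.68, beside 8.67 for Socs2. Il7r, the IL-7 receptor chain of naïve cells, fell from 507 ± 24.6 to 8.12 ± 2.42 CPM (-6.00), and Il12rb1, a chain of the IL-12 receptor upstream of STAT4, rose from 1.97 ± 0.201 to 39.5 ± 9.21 CPM (4.29). Among 4 JAKs, Jak1 (-1.62 ± 0.11) and Tyk2 (-1.25 ± 0.06) fell and none rose. Stat2, a STAT of the type I interferon response, fell by 0.92 ± 0.09. Of the 4 other SOCS genes only Socs7 was called in WT cells, at 0.35 ± 0.09 (edgeR adjusted p = 0.007). In Aim2-/- cells Socs7 (0.62 ± 0.11) and Socs4 (0.43 ± 0.09) were called (adjusted p = 0.00035 and 0.0013).

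Of 10 other inhibitors 3 rose and 3 fell, led by Ptprc, the CD45 gene (-1.25 ± 0.06), Pias1 (-1.004 ± 0.13) and Ptpn1 (0.91 ± 0.08). Of 14 genes known to be induced by STAT5, 9 rose and 4 fell in WT cells, with a median of 0.87. Most genes of any kind were called in this comparison, so a count of 13 of 14, like the counts of the other lists, is to be read against 76.9%. Besides Il2ra they included Foxp3 (7.41 ± 0.35), the lineage factor of Treg cells, and Lta (5.64 ± 0.30), the lymphotoxin-alpha gene. Of 8 tested genes known to be induced by STAT3, 7 passed the count filter in both states, and 2 of these rose and 4 fell. Among those that fell were Fos (-8.34 ± 0.23), an immediate early gene, and Junb (-3.96 ± 0.11), a partner of FOS. Every gene given as called for culture from these lists had an edgeR adjusted p of 0.007 or less.

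**Figure D5:**
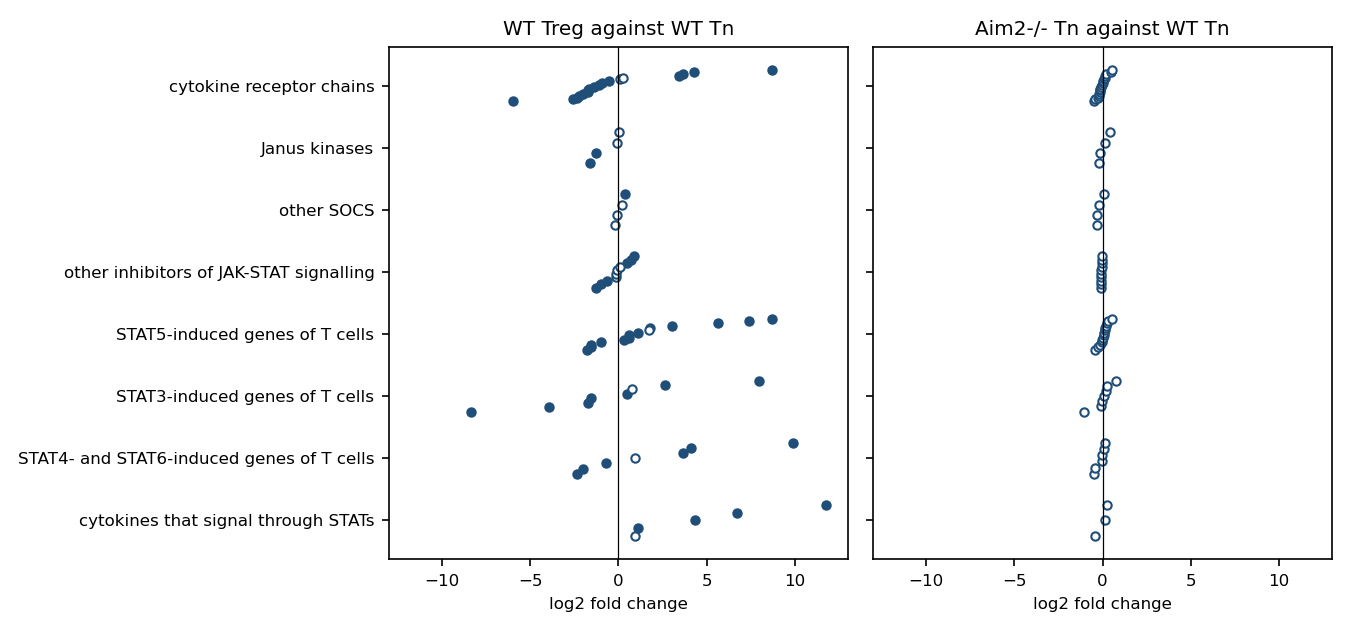
Log2 fold change of the tested genes of 8 pathway lists for WT Treg against WT Tn (left) and Aim2-/- Tn against WT Tn (right), on the same axis. Filled points passed an edgeR adjusted p of 0.05, 1 point per gene and list. Values for Il24, Il9 and Il12a, which were at 3 counts or fewer in WT Tn libraries, are fitted and have no exact size. Points spread widely on the left, and none is filled on the right.

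As a description of shared pattern, the gene whose log2 CPM was most like each of the 9 over the 16 libraries was taken from 14669 genes. It was Asf1b for Socs2 (Pearson r = 0.998), Ticrr for Cish (0.998), Ptms for Socs1 (0.992) and Pnrc1 for Socs3 (0.997). For the STATs it was Acp5 for Stat4 (0.998), Larp1 for Stat5b (0.995), Xrcc2 for Stat5a (0.991), Prdm15 for Stat6 (0.987) and Net1 for Stat3 (0.983). Among the 9 themselves, Socs3 was most like Stat4 (0.980) and least like Socs2 (-0.987), and Cish was most like Stat5b (0.984). The 16 libraries fall into Tn and Treg clusters, so r over them follows the difference between the states, and no test was made.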

How the data were processed

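RNA of 16 libraries (4 groups of 4, grouped by their titles) was analysed. The authors prepared libraries with a stranded mRNA kit, sequenced single-end reads, ran STAR against GRCm38 and then RSEM with GENCODE m15. They deposited the expected counts of 53090 genes per library, neither normalized nor filtered. RSEM divides reads shared by related genes, which touches Stat4, Stat5a, Stat5b, Cish and Socs2. Tool versions and the strand setting are not given in the sources used here. Each library held 22516424 to 34533316 counts, the floor was 3 counts, and reads without molecular identifiers mean that floors cover counting error only. No pair of libraries agreed within sampling noise.

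Expected counts were rounded. A gene entered a comparison if 4 or more of its libraries had 10 counts or more. Tests were two-sided quasi-likelihood tests (edgeR 4.0.16, robust fit, TMM factors, R 4.3.3) between the 8 libraries concerned. P-values were adjusted by Benjamini-Hochberg over every gene tested, with 0.05 as the threshold. The interaction was fitted on all 16 libraries. All 9 genes passed the count filter in every comparison. CPM used TMM factors over 16 libraries, and RPKM summed exon lengths from GENCODE M21 (GRCm38), which lists 98.7% of the genes. The paper names limma-voom, which was an alternative here (limma 3.58.1), as were DESeq2 1.42.0, other scalings and filters, a replicate block, single replicates left out, and replicates 1 and 2 or 3 and 4 alone.

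The 9 genes and the lists were chosen with earlier results of these data known. Each of the 9 is given in full, and from each pathway list the called genes with the largest absolute change in WT culture, at most 3, and any called for genotype. For likeness the gene with the highest r on log2 CPM (prior count 2) was taken. The same replicate number in different groups did not pair single libraries: for no pair of groups did all 4 numbers reach a correlation over 0.1 after the group means were removed. Most best matches did lie within the same pair of numbers, 1 and 2 or 3 and 4. Some symbols occurred on more than 1 row, and the row with the higher count was used. Some genes of the lists are not reported here.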

Additional observations from a re-analysis of the deposited data

How the results depend on the processing

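For culture, every one of the 9 genes kept its direction under every tool, scaling, filter and left-out library in both genotypes. The WT call of Stat5a was the exception in significance: it was called at 0.91 by DESeq2 (adjusted p = 0.012), 1.07 by limma-voom (0.021), 0.92 with library totals (0.036), 0.86 with all 16 libraries in one fit (0.020) and 1.07 with replicates 1 and 2 against 3 and 4 as a covariate (0.0079), and ran from 0.63 to 1.20 with single libraries left out, where only the fit without WT Tn replicate 2 called it. With 10 counts required in every library, Socs2 was not tested for culture in Aim2-/- cells, for genotype in Tn cells or for the interaction. Upper-quartile scaling moved the median of all genes to -0.17 in WT and -0.20 in Aim2-/- cells, and no direction of the 9 changed. Of 36 levels per length, 29 moved by more than 1 SD with the longest transcript.

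For genotype in Tn cells, where 31 genes were called in all, DESeq2 called 127, the fit without a count filter 47, that with 10 counts in every library 18, a joint fit of all 16 libraries 58, the covariate 51 and replicates 3 and 4 alone 493, with 1 of the 9 genes called (Socs3) in the last and none in the others. In Treg cells, with 29, the counts were 52 by DESeq2, 17 with 10 counts in every library and 6 in replicates 3 and 4 alone, and for the interaction, with 3, they were 10 by DESeq2 and 0 with 10 counts in every library (369 at an unadjusted p under 0.05). With single libraries left out the counts were 17 to 28, 10 to 17 and 2 to 5, and none of the 9 was called. The count moved by more than 1.5 times without WT Tn replicate 1 or Aim2-/- Tn replicate 2, 3 or 4 (19, 19, 18 and 17), without any 1 of the 8 Treg libraries, and for the interaction without Aim2-/- Tn replicate 1 (5). Of the pathway lists, where edgeR called none in Tn cells, 1 gene was called by DESeq2, 1 without a count filter, 9 in replicates 3 and 4 alone and 0 to 1 with single libraries left out. The cause of these shifts was not tested. The pairs of replicates follow the gap of Stat5a in WT Tn libraries, so calls within a pair are descriptions. In replicates 3 and 4 alone the direction turned for genotype in Tn cells for Socs2 (0.091), Stat3 (0.11) and Stat5a (0.46), in Treg cells for Stat4 (-0.20), and for the interaction for Socs2 (-0.093), Stat3 (-0.064), Stat4 (-0.24) and Stat5a (-0.49). In replicates 1 and 2 alone it turned for Stat6 in Treg cells (-0.003). With single libraries left out, values that crossed 0 were those in Tn cells of Stat3 (-0.17 to 0.092) and Stat4 (-0.014 to 0.093), in Treg cells of Stat3 (-0.026 to 0.12), Stat4 (-0.072 to 0.19), Stat5a (-0.081 to 0.003) and Stat6 (-0.033 to 0.092), and in the interaction of Socs2 (-0.039 to 0.67), Stat3 (-0.027 to 0.24), Stat4 (-0.11 to 0.15) and Stat5a (-0.045 to 0.56). None of these was called before or after.

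With the replicate number as a block, 29 genes were called in Tn and 41 in Treg cells and 2 for the interaction, with none of the 9, and 10352 and 10860 for culture in WT and Aim2-/- cells. The block brought Stat5a in WT culture to 1.07 (adjusted p = 0.020) and changed no other call among the 9. The numbers do not pair single libraries. The correlation of same-numbered WT and Aim2-/- libraries, after the group means were removed, was 0.023 to 0.302 in Tn and -0.013 to 0.395 in Treg cells. Only numbers 1 and 3 in Tn and 1 and 2 in Treg cells were best matched by their own number. Between genotypes and between states, the best match still lay within the same pair of numbers, 1 and 2 or 3 and 4. The exception was WT Tn replicate 4 against Aim2-/- Tn libraries. The source of this shared split was not tested. The numbering of the Aim2-/- Tn libraries is itself uncertain, which also touches the block and the pairs of replicates. Depth limits Socs2 in Tn cells.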

Other observations

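Of 7 tested genes known to be induced by STAT4 or STAT6, 6 passed the count filter in both states, and 2 of these rose and 3 fell with culture in WT cells. The share called, 83.3%, is near the 76.9% of all genes tested and is not a result about the list. Tbx21, the Th1 factor gene, went from 2.98 ± 0.838 to 52.6 ± 52.0 CPM (SD, n = 4), a log2 fold change of 4.10 ± 0.72 (edgeR adjusted p = 0.00065), and its WT Treg libraries ran from 14.7 to 127 CPM. Il12rb2, a chain of the IL-12 receptor, rose from 0.978 ± 0.093 to 12.9 ± 8.73 CPM (log2 3.69 ± 0.50, adjusted p = 9.7e-05). Il24, a cytokine gene induced by STAT6, had 0 counts in every Tn library and 0.875 to 12.4 CPM in WT Treg libraries, at least 33-fold higher in the mean against the floor of 3 counts per library. It was tested only because of its Treg libraries, so that it could only rise.

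Of 13 cytokines that signal through STATs, 5 were tested in WT cells, 2 of them (Il9 and Il12a) only because of their Treg libraries, so that they could only rise and no count of the list is given. Il9 had 0 counts in every Tn library and 15.4 ± 2.89 CPM in WT Treg cells, at least 122-fold higher. Lif, a cytokine that uses gp130 and STAT3, rose from 1.03 ± 0.540 to 111 ± 49.4 CPM (log2 6.72 ± 0.46, edgeR adjusted p = 9.5e-07). Il12a, a subunit shared by IL-12 and IL-35, had 0 to 2 counts per WT Tn library and 11 to 18 counts per WT Treg library. Ifng was not called in WT cells (0.92, adjusted p = 0.36), and its WT Treg libraries ran from 0.936 to 20.7 CPM.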
